A study of Mus musculus with 32 samples.

Results

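The dual-specificity MAPK phosphatases are a family of enzymes that switch off MAP kinases, and 10 of their genes (Dusp1, Dusp2, Dusp4, Dusp5, Dusp6, Dusp7, Dusp8, Dusp10, Dusp14 and Dusp16) are described here across mouse kidney, liver, lung and spleen after cisplatin. The members were taken by name from the family, with earlier results of these data known, and all 10 are among the 25059 genes in the RNA-seq files. Each passed the filters on GG content, length and reads that 16502 genes passed for the DNA assays. Wild-type C57BL/6J female mice, 6 or 7 months old, received 1 intraperitoneal injection of cisplatin at 10 mg per kg or the same volume of saline at ZT1 and were killed at ZT5, which makes 4 h, although the time field of the labels reads 2 h. Damage-seq, which locates remaining cisplatin adducts, and XR-seq, which sequences the short oligomers cut out by nucleotide excision repair, were done in 2 cisplatin libraries per organ. RNA-seq was done in 2 saline control and 2 cisplatin libraries per organ. All samples are whole organs, so in RNA-seq fewer cells of a type and less RNA per cell cannot be told apart.

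MAP kinases (ERK, JNK and p38) carry growth factor, cytokine and stress signals and are active only while a threonine and a tyrosine of their activation loop are both phosphorylated. The dual-specificity phosphatases remove both phosphates, and several of them are transcribed quickly when the kinases they restrain are active, which makes them a negative feedback. Dusp1, Dusp2, Dusp4 and Dusp5 encode inducible nuclear phosphatases, Dusp6 and Dusp7 encode cytoplasmic phosphatases that prefer ERK, and Dusp8, Dusp10 and Dusp16 encode phosphatases that prefer JNK and p38. Dusp14 encodes a small family member without the kinase docking domain of the others. In the DNA assays, transcription-coupled repair acts on the transcribed strand (TS) of active genes, and the other strand is the non-transcribed strand (NTS).

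Reads on genes ranged from 1571167 to 6441367 per library in Damage-seq, from 10658675 to 59779770 in XR-seq and from 15619474 to 162270280 in RNA-seq. Markers of kidney tubule, hepatocytes, lung epithelium and B cells each had their highest summed level in the organ of that label, and the p53 response list, which holds the p53 target Cdkn1a, was higher in cisplatin than in control libraries in each organ (summed level 624 to 641 against 156 to 170 RPKM for kidney, 188 to 236 against 70.4 to 85.9 for liver, 310.2 to 329 against 178 to 184 for lung and 186 to 189 against 159 to 168 for spleen). The 2 control libraries of lung, and those of spleen, differed from each other by little more than the sampling of paired reads (index of dispersion 2.75 and 2.98, against 39.3 to 349 in the other RNA-seq pairs), so each pair was summed and counted as 1 sample. Lung and spleen thus compare 1 control with 2 cisplatin samples, the lone control being assumed to vary like the treated ones.

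The genes lie on 10 chromosomes. On GRCm38 (mm10) with GENCODE M21, Dusp2 is at chr2:127336159-127338376, Dusp4 at chr8:34807297-34819894, Dusp5 at chr19:53529109-53542431, Dusp6 at chr10:99263231-99267489 and Dusp7 at chr9:106368632-106375724. Dusp8 is at chr7:142079490-142095843, Dusp10 at chr1:184013302-184075636, Dusp14 at chr11:84048041-84069261 and Dusp16 at chr6:134715468-134792625. For Dusp1 the RefSeq extent chr17:26505591-26508472 was used, since the GENCODE extent of 56539 bp joins a distant upstream transcript over Ergic1, and Damage-seq reads per GG over it came to only 0.030 (TS) and 0.057 (NTS) of the median gene. Exons of Dusp8 and Dusp5 overlap transcripts of the opposite strand, and the RNA library kit is not stated to keep strand, so reads of each pair cannot be told apart. Exons of the GENCODE model of Dusp1 overlap those of Ergic1 on the opposite strand too, at the distant upstream end and outside the RefSeq extent, and whether the RNA counts include those exons is not given in the sources used here. The genes run from 2.22 kb (Dusp2) to 77.2 kb (Dusp16), and the number of GG dinucleotides, the main target of cisplatin, runs from 173 to 3990 per strand.

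The start regions of Dusp1, Dusp8 and Dusp5 are shown as those of the members called higher after cisplatin in the most organs, ties going to the larger kidney change. RefSeq (GRCm38.p6) gives a promoter of 300 bases, from 250 before to 50 after the start, for 9 of the 10 members, Dusp4 being without an entry. Capitals mark matches, on either strand, to the cyclic AMP response element TGACGTCA (CRE), its core TGACG (which lies within the CRE), AP-1 (TGANTCA), the TATA box TATAAA and the CArG box.
Dusp1, chr17:26508423-26508722, minus strand: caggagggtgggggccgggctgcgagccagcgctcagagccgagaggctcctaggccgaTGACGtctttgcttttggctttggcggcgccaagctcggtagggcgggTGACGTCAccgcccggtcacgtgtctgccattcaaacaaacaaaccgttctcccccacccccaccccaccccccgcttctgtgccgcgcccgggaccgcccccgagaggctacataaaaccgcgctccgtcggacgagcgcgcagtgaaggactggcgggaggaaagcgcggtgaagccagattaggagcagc
Dusp8, chr7:142095235-142095534, minus strand: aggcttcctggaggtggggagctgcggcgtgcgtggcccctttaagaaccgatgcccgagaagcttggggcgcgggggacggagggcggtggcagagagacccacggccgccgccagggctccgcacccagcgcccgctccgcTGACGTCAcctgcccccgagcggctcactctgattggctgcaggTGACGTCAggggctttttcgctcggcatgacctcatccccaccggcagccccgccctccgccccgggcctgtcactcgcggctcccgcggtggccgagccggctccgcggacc
Dusp5, chr19:53528895-53529194, plus strand: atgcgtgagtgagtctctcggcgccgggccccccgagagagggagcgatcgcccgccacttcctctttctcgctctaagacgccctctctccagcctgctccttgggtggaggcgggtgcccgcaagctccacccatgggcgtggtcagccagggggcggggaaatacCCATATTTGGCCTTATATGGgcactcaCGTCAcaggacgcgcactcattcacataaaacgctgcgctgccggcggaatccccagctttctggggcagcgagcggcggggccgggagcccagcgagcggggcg
Dusp1 holds 1 CRE at -143 and a further core at -191, and Dusp8 holds 2 CREs at -107 and -63, positions being counted from the annotated start. The CRE occurs in 1.79% of the 32851 promoters of the same length and in 2 of the 9 members. The Dusp5 promoter holds 2 CArG boxes, the element bound by serum response factor, next to each other at -82 and -72, and a core on the opposite strand at -55. CArG boxes occur in 1.63% of all promoters and in 1 of the 9 members. The core occurs in 20.8% of promoters and in 5 of the 9 members (Dusp1, Dusp2, Dusp5, Dusp8 and Dusp16). The GC box GGGCGG, left in lower case, occurs in 35.7% of promoters and in 8 of the 9. AP-1 and TATAAA, found in 7.81% and 13.6% of promoters, matched in none of the 9 windows. A match is a description of the letters and not a binding site.

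Without cisplatin Dusp6 and Dusp1 were the most abundant members in kidney, liver and lung, and Dusp2 was in spleen. Levels are RPKM, reads scaled to exon length and to library size with TMM factors, so that genes can be compared. For Dusp1 the exon length was that of the exons in the RefSeq extent, so its RPKM and rank among members rest on that choice. In control kidney Dusp6 was the most abundant (21.3 and 18.5 RPKM in the 2 libraries), followed by Dusp1 (9.34 in each) and Dusp14 (8.92 and 8.93). In control liver Dusp6 (30.2 and 27.4 RPKM), Dusp1 (13.9 and 14.8) and Dusp16 (10.1 and 11.5) were the highest. In control lung Dusp6 (32.2 and 33.4 RPKM), Dusp1 (24.6 and 24.8), Dusp7 (23.5 and 25.2) and Dusp14 (18.7 and 19.1) were the highest. In control spleen Dusp2, known from activated lymphocytes, was the highest at 25.2 and 25.6 RPKM, and it was between 0.279 and 0.484 RPKM in control kidney and liver.

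All 10 members differed between the 4 control organs (edgeR quasi-likelihood F test, adjusted p between 5.29e-07 for Dusp2 and 0.00962 for Dusp6), where 69.1% of the 19100 genes tested did. Per pair, 6 members differed between kidney and liver (36.5% of genes did), 8 between kidney and lung (36.2%), 5 between kidney and spleen (50.1%), 7 between liver and lung (45.2%), 8 between liver and spleen (50.9%) and 6 between lung and spleen (28.4%). The log2 difference of kidney minus spleen was -6.28 (SE 0.42) for Dusp2 and -3.91 (SE 0.29) for Dusp5. That of liver minus lung was -5.41 (SE 0.71) for Dusp8 and -5.23 (SE 0.46) for Dusp14. Not every neighbour in an order differed: Dusp5 in kidney and liver (adjusted p = 0.79) and Dusp4 in kidney, lung and spleen (adjusted p between 0.642 and 1) did not differ beyond their spread.

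**Figure D1:**
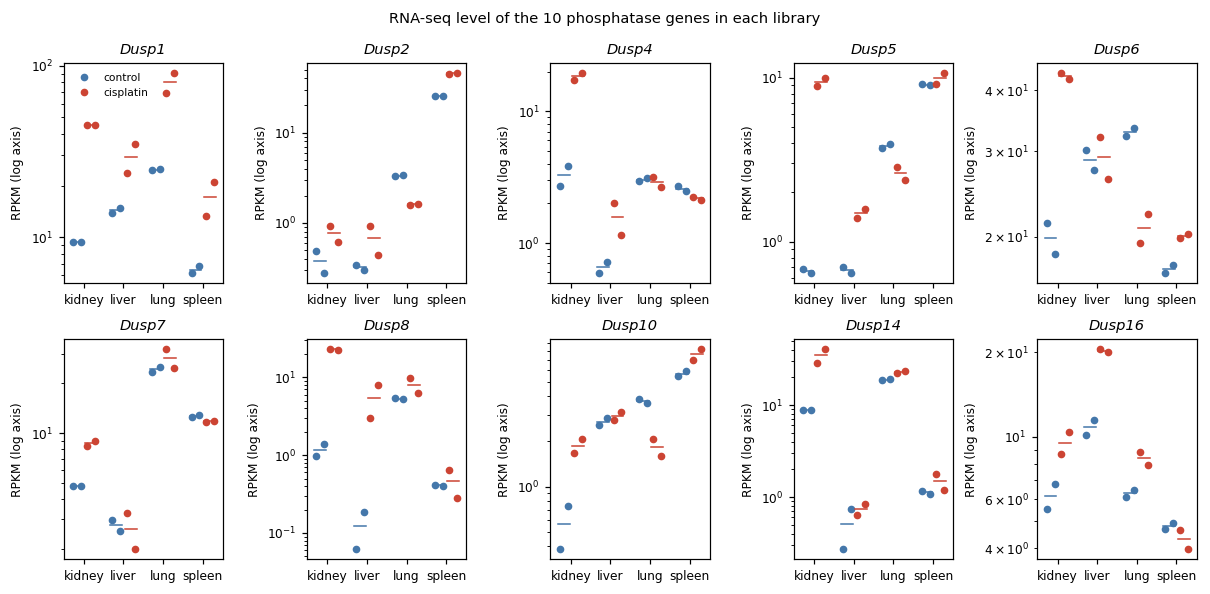
RPKM (log axis) of each member in every RNA-seq library of 4 organs, blue for control and red for cisplatin, points being libraries and short lines group means. In kidney both cisplatin libraries lie above both controls for all 10 members, with Dusp8 at 22.8 to 23.1 against 0.975 to 1.39 RPKM.

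The question for each organ was which members changed after cisplatin. In kidney 6 of the 10 rose and 0 fell, where 2.40% of the 15471 genes tested rose and 2.65% fell (edgeR's quasi-likelihood test that the change exceeds 0.4 on the log2 scale, with adjusted p under 0.05 over all genes). The median log2 fold change of the 10 was 1.86, and that of all genes tested was -0.00297. Both cisplatin libraries were above both controls for all 10 members, as they were for 26.2% of all genes tested.

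Of the inducible nuclear phosphatases, Dusp5, which acts on ERK, went from 0.686 and 0.647 RPKM in control kidney to 8.88 and 9.92, a log2 fold change of 3.85 (SE 0.24, adjusted p = 0.00333), or 14.4-fold. Dusp4 went from 2.69 and 3.83 to 17.4 and 19.5 RPKM, a change of 2.52 (SE 0.23, adjusted p = 0.00813). Dusp1, an immediate-early gene of the stress response, went from 9.34 in both controls to 45.2 and 45.03 RPKM, a change of 2.30 (SE 0.16, adjusted p = 0.00349). For these 3 genes the lowest cisplatin library was more than 4 times above the highest control library. Dusp2 stayed low, at 0.484 and 0.279 RPKM in controls and 0.927 and 0.622 in cisplatin libraries, with 20 to 64 reads per library, and was not called (1.06, SE 0.53, adjusted p = 0.423).

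The largest change of a member was that of Dusp8, a phosphatase for JNK and p38. Its level was 0.975 and 1.39 RPKM in control kidney and 23.1 and 22.8 in cisplatin kidney, a log2 fold change of 4.29 (SE 0.23, adjusted p = 0.00231), or 19.5-fold. Its relatives Dusp10 (0.382 and 0.747 against 1.67 and 2.08 RPKM, change 1.73, adjusted p = 0.0834) and Dusp16 (5.55 and 6.78 against 8.67 and 10.4 RPKM, change 0.66, adjusted p = 0.245) were not called. Among the cytoplasmic ERK phosphatases, Dusp6 rose from 21.3 and 18.5 to 43.3 and 42.1 RPKM (1.13, SE 0.17, adjusted p = 0.0345), and Dusp7 was at 4.79 and 4.76 against 8.37 and 9.01 RPKM (0.89, adjusted p = 0.0931). Dusp14 rose from 8.92 and 8.93 to 28.8 and 40.4 RPKM (1.98, SE 0.21, adjusted p = 0.0137).

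Dusp1, Dusp4, Dusp5, Dusp8 and Dusp14 were called in all 10 alternative analyses of kidney. Dusp6 was called in 8 of 10, its call being lost without cisplatin replicate 1 (adjusted p = 0.255) or without cisplatin replicate 2 (adjusted p = 0.109). Dusp10 was called in 5 of the 10, among them the analysis without control replicate 2 (2.32, adjusted p = 0.00760).

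**Figure D2:**
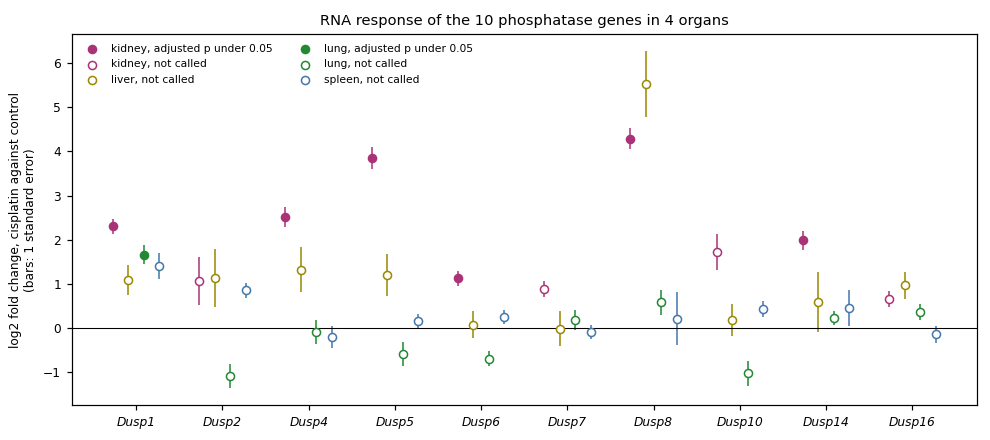
Log2 fold change of cisplatin against control RNA (y axis, bars 1 standard error) for each member (x axis) and organ (colour), filled points having an adjusted p under 0.05 and open points not. Filled points are 6 kidney values between 1.13 and 4.29 and the lung value of Dusp1 at 1.66.

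In liver no member was called, as were 0 of the 13868 genes tested (0.00% in either direction), with 1287 genes at an unadjusted p under 0.05 and 27 higher and 161 lower by DESeq2. Dusp8 nevertheless had a wide gap, at 0.0620 and 0.187 RPKM (8 and 24 reads) in control and 2.98 and 8.05 RPKM (304 and 718 reads) in cisplatin liver, with no overlap. Its log2 fold change was 5.52 (SE 0.75, adjusted p = 0.0911), and it was called in 8 of 10 alternatives, DESeq2 included (adjusted p = 2.32e-12). Dusp1 had 13.9 and 14.8 RPKM in controls and 23.6 and 35.1 in cisplatin liver (1.09, SE 0.34, adjusted p = 0.428). Its change was 1.34 without cisplatin replicate 1, which leaves 1 cisplatin sample. Dusp16 had 10.1 and 11.5 against 20.5 and 20.1 RPKM (0.97, SE 0.31, adjusted p = 0.468), and Dusp5 had 0.703 and 0.645 against 1.39 and 1.59 RPKM (1.20, adjusted p = 0.546). Both cisplatin libraries were above both controls for 6 members (16.7% of genes), and the groups overlapped for Dusp6, Dusp7, Dusp10 and Dusp14.

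In lung Dusp1 rose, from 24.6 and 24.8 RPKM in controls to 69.3 and 90.7 (log2 fold change 1.66, SE 0.21, adjusted p = 0.0260), 1 of 10 members where 0.132% of 18210 genes rose. The call was lost in a fit of all 8 groups (adjusted p = 0.120). That fit called 0 of 19100 genes higher in lung and 70 lower, so the loss is not particular to Dusp1. The call was also lost without cisplatin replicate 1 and without cisplatin replicate 2. Without a cisplatin library 1 sample was set against 1, assumed to vary like the other groups, and 0 genes of any kind were called in lung (1123 and 837 at an unadjusted p under 0.05), so those 2 fits say nothing about the stability of Dusp1. No member fell, where 1.96% of genes did, but 4 had both cisplatin libraries below both controls, a pattern seen in 30.0% of genes, and 4 had both above, as 36.5% of genes did. These were Dusp2 (3.27 and 3.37 against 1.57 and 1.64 RPKM, -1.09, adjusted p = 0.195), Dusp10 (3.84 and 3.61 against 2.08 and 1.61, -1.02, adjusted p = 0.247), Dusp6 (32.2 and 33.4 against 19.5 and 22.3, -0.69, adjusted p = 0.249) and Dusp5 (3.74 and 3.93 against 2.85 and 2.37, -0.60, adjusted p = 0.630). Dusp2, Dusp6 and Dusp10 were called when each control library was counted as a replicate, with adjusted p of 0.0198, 0.0281 and 0.0442. That fit called 265 of 17017 genes higher and 1341 lower, against 24 and 357 with the controls summed.

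Lung controls and cisplatin lungs also differed in markers of other cells. All 8 B cell markers fell (summed level 122 to 129 RPKM in controls, 30.3 to 39.7 in cisplatin), as did 5 of 8 T cell markers (44.4 to 45.7 against 15.3 to 15.9). The 3 high endothelial venule markers of 4 listed had a sum of 59.7 to 64.0 against 3.40 to 4.63 RPKM, and 1 of the 3, Glycam1, was called lower. Sums were also lower in cisplatin for kidney tubule (49.3 to 51.5 against 2.70 to 7.13), hepatocyte (45.5 to 55.8 against 11.5 to 31.6) and erythroid markers (7222 to 7251 against 3129 to 3886). That of neutrophil and macrophage markers was higher (2967 to 3154 against 3666 to 3761). No marker of these further lists was called in lung. None of these markers was at 0 in either lung group. Their part in the lung values of Dusp2, Dusp5, Dusp6 and Dusp10 was not tested. Turning to spleen, where no member was called, 0.164% of 17686 genes rose and 0.0170% fell, the 8 pancreatic acinar markers rose from a sum of 5.19 to 5.32 RPKM, with Amy2b at 0, to 777 to 1022, so the cisplatin spleens held RNA of that kind.

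In spleen Dusp1 had 6.17 and 6.76 RPKM in controls and 13.4 and 21.1 in cisplatin libraries (1.41, SE 0.29, adjusted p = 0.796), and Dusp2 had 25.2 and 25.6 against 44.9 and 45.7 (0.85, SE 0.16, adjusted p = 0.831). Dusp5, which rose in kidney, had 9.12 and 9.005 RPKM in control spleen and 9.18 and 10.7 in cisplatin spleen (0.16, SE 0.16). Over all genes 29 were called higher and 3 lower, with 768 at an unadjusted p under 0.05, and DESeq2 also called 0 members. Both cisplatin libraries were above both controls for 6 members (29.4% of genes) and below them for 3 (29.2%). The part of the pancreatic RNA in these values was not tested.

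Whether the response itself differed between organs was tested in 1 fit of the 8 RNA-seq groups, with 60 tests for the 10 members and 6 organ pairs. Of these, 4 were called. The response of Dusp5 in kidney exceeded that in liver by 2.67 (SE 0.36, adjusted p = 0.0286), that in lung by 4.45 (SE 0.37, adjusted p = 7.87e-04) and that in spleen by 3.76 (SE 0.37, adjusted p = 0.00265), on the log2 scale. The response of Dusp4 in kidney exceeded that in spleen by 2.78 (SE 0.47, adjusted p = 0.0394). In the pairs of kidney with liver, lung and spleen, calls were made for 0.0733%, 0.120% and 0.304% of the 19100 genes tested, and these pairs share the kidney samples. In the remaining pairs 0 members were called, against 0.00% (liver with lung), 0.0366% (liver with spleen) and 0.0105% (lung with spleen) of genes. Dusp8 differed by 3.72 from lung (SE 0.81, adjusted p = 0.164), by 4.17 from spleen (SE 0.83, adjusted p = 0.0819) and by -1.21 from liver (SE 0.83, adjusted p = 0.879). For Dusp1 no difference between organs passed, the estimates lying between -0.59 and 1.23. With DESeq2's size factors the number of calls was 2.

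Other genes of the pathway were counted in the same fits. In kidney 92 genes of 9 lists (other dual-specificity phosphatases, Sprouty and Spred inhibitors, EGF receptor ligands, MAP kinases and the 2 tiers of kinases above them, kinases below them, other phosphatases and scaffolds) were tested, of which 5 rose and 7 fell, where 2.40% and 2.65% of all genes did. None of the 13 other dual-specificity phosphatases tested in kidney was called, and their median log2 fold change was -0.16, against 1.86 for the 10 members and -0.00297 for all genes. Members and lists were set with earlier results of these data known, so this contrast is a description and carries no test. Among feedback inhibitors of receptor signalling, 2 of 7 rose: Spry4, from 1.45 and 1.92 to 5.39 and 6.48 RPKM (1.84, SE 0.24), and Spry2, from 8.38 and 8.83 to 18.3 in both (1.12, SE 0.17). Among ligands of the EGF receptor, Hbegf, which activates ERK through that receptor, rose from 3.14 and 2.96 to 56.5 and 67.7 RPKM (4.38, SE 0.19, adjusted p = 0.00140), the 1 of 5 called.

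The kinases moved in both directions. Mapk6, the atypical ERK3, rose from 4.94 and 4.83 to 14.9 and 12.8 RPKM (1.53) and Map2k3, which phosphorylates p38, from 17.5 and 17.8 to 44.2 and 39.2 (1.27). Map2k6, the other main kinase of p38, fell by 2.23 on the log2 scale, from 3.19 and 3.44 to 0.647 and 0.729 RPKM, and Map2k5, which acts on ERK5, fell by 1.69. Mapk4 (-1.68), Map3k13 (-2.10), Map3k5 (-1.85), Taok3 (-1.32) and Ksr2 (-2.79) fell as well. In lung 95 genes of these lists were tested: Errfi1, an inhibitor of the EGF receptor, rose from 29.5 and 31.5 to 81.6 and 119 RPKM (1.67), and Map2k6 (-2.48), Map2k5 (-1.51) and Ksr1 (-1.63) fell, where 0.132% of all genes rose and 1.96% fell. In liver and spleen 0 were called.

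Across all 16 RNA-seq libraries the genes most like each member in log2 CPM, of 18419 compared, were Ier5 for Dusp5 (Pearson r 0.97), Jun for Dusp8 (0.93), Dctn4 for Dusp1 (0.95), Sowahc for Dusp4 (0.94) and Plk2 for Dusp6 (0.85). For the rest they were Stk17b for Dusp2, Serpinb9 for Dusp7 and Syde1 for Dusp14 (0.99 each), Tnfrsf1b for Dusp10 (0.95) and 1810055G02Rik for Dusp16 (0.97). The libraries share organs and near-identical control pairs, so r describes these 16 libraries and carries no test.

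XR-seq was compared between organs as CPM (of the reads on genes) per 1000 GG of the strand. In kidney the TS of 5 members lay above the 93rd percentile of genes in both libraries. Dusp1 had 159 and 123 (percentiles 99.8 and 99.4 of the 16502 genes), Dusp8 had 92.9 and 113 (percentiles 97.8 and 99.1), and Dusp7 had 90.0 and 87.3 (percentiles 97.5 and 96.5), where the median gene had 21.1 and 21.9. Dusp6 (76.6 and 87.2) and Dusp4 (85.8 and 74.7, percentiles 96.9 and 93.4) were the other two. The rank of Dusp1 rests on its RefSeq extent, with 215 GG on the TS, and would be lower over the GENCODE extent, with 4040. Dusp5 had 51.4 and 82.6 (percentiles 83.6 and 95.5). Lower in the order came Dusp2 (percentiles 65.1 and 76.2), Dusp14 (62.0 and 74.4) and Dusp16 (60.6 and 63.2), and Dusp10 was close to the median gene (22.2 and 21.6). The highest mean over organs was in kidney for 7 of the 10 members, and for 31.5% of all genes.

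All 10 members differed between organs on the TS (edgeR quasi-likelihood F test with 3 degrees of freedom, adjusted p under 0.05), where 60.7% of 16502 genes did. Between pairs the numbers were 7 for kidney and liver (45.7% of genes), 7 for kidney and lung (22.8%), 8 for kidney and spleen (27.3%), 5 for liver and lung (48.6%), 7 for liver and spleen (44.9%) and 3 for lung and spleen (17.8%). Dusp1 was lower in liver (36.3 and 49.9), lung (42.2 and 58.7) and spleen (60.2 and 53.4) than in kidney, by log2 differences of 1.71 (SE 0.29), 1.48 (SE 0.29) and 1.31 (SE 0.29) with adjusted p of 4.29e-04, 0.00217 and 0.00449, and those 3 organs did not differ from each other beyond their spread (adjusted p between 0.296 and 0.769). Dusp5 had 25.1 in both liver libraries, 26.4 and 28.8 in lung and 42.2 and 40.5 in spleen, kidney being higher by 1.42, 1.28 and 0.70, and here spleen and liver differed too (liver minus spleen -0.72, adjusted p = 0.0130). Dusp6 was higher in kidney by 0.87 to 0.99 than in the others, which lay between 37.8 and 48.2 in all 6 libraries.

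Dusp8 differed in 5 of the 6 organ pairs. Its TS value was 92.9 and 113 in kidney, 75.9 and 75.8 in lung, 40.2 and 37.0 in liver and lowest, 12.5 and 18.6, in spleen. Kidney exceeded spleen by 2.70 (SE 0.18, adjusted p = 3.20e-07) and liver by 1.42 (SE 0.16, adjusted p = 2.52e-05), and kidney and lung did not differ beyond their spread (0.44, SE 0.16, adjusted p = 0.0690). Its RNA in cisplatin libraries had the same order of organ means, kidney, lung, liver and spleen. Dusp14 ran from kidney (31.1 and 45.1) through liver (16.3 and 27.0) and lung (12.7 and 11.6) to spleen (3.67 and 4.49), all 6 organ pairs being called, whereas its RNA was higher in cisplatin lung (22.1 and 23.4 RPKM) than in cisplatin liver (0.639 and 0.842 RPKM).

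Dusp2 had its high values in spleen (64.1 and 44.6) and kidney (33.4 and 46.8), which did not differ beyond their spread (-0.43, SE 0.45, adjusted p = 0.537), and low values in liver (6.00 and 6.96) and lung (7.31 and 4.91). Its RNA in cisplatin libraries was 44.9 and 45.7 RPKM in spleen and 0.927 and 0.622 in kidney. Dusp16 was highest in lung (38.2 and 37.0) and lowest in liver (17.2 and 16.1), although its RNA was highest in liver. Dusp10 and Dusp7 had the narrowest ranges relative to their level, 21.6 to 31.4 and 59.3 to 90.0 over all 8 libraries. For Dusp7 the pairs called were kidney with spleen (0.52, SE 0.15, adjusted p = 0.0177) and liver with spleen (0.41, SE 0.15, adjusted p = 0.0373), and for Dusp10 kidney was lower than lung by a log2 difference of -0.45 (SE 0.11, adjusted p = 0.0131) and than spleen by -0.40 (adjusted p = 0.0207), and liver was lower than lung (-0.30, adjusted p = 0.0450). The organ with the highest XR-seq TS mean was also the organ with the highest cisplatin RNA for 5 of the 10 members (Dusp2, Dusp4, Dusp6, Dusp8 and Dusp14), and for 41.7% of all genes.

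**Figure D3:**
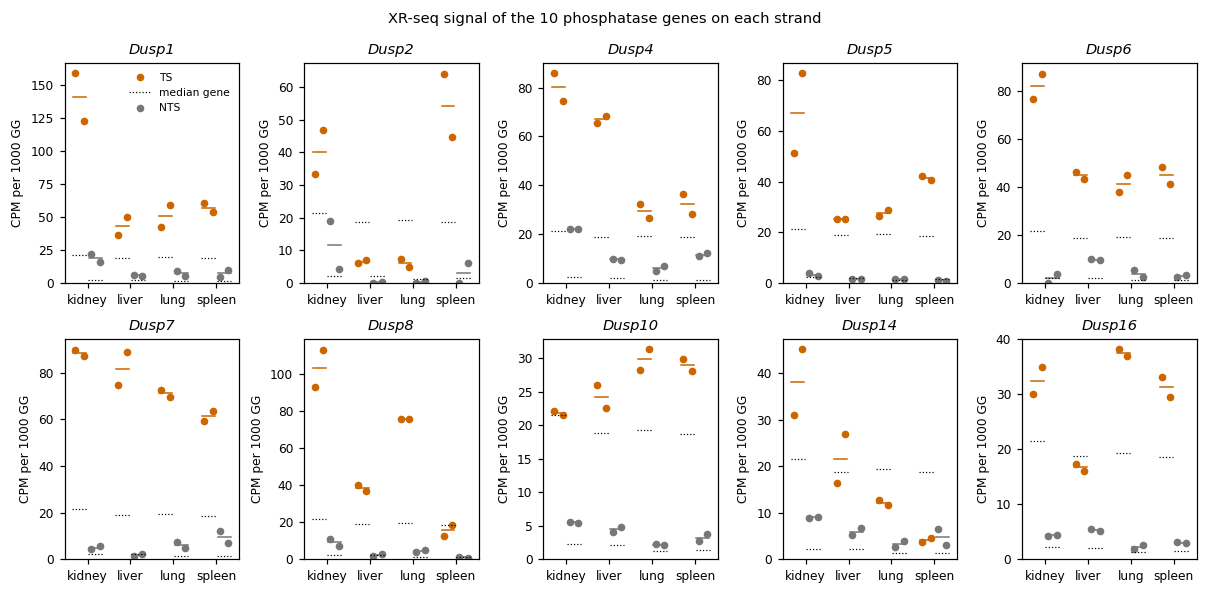
XR-seq CPM per 1000 GG (y axis) on the TS (orange) and NTS (grey) of each member in 2 libraries per organ, short lines being means and dotted lines the median gene. The TS values lie above the NTS values of the same library except for Dusp14 in spleen replicate 1, and kidney is highest for 7 of 10 members.

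The strands were compared within each library, per GG. On the TS of members XR-seq exceeded the NTS in 79 of 80 library values, a count without a share of all genes beside it. The test called 9 members for kidney, 8 for liver, 9 for lung and 8 for spleen, each with more signal on the TS, where 58.3%, 52.0%, 61.0% and 59.4% of genes were called that way. The log2 ratio of TS to NTS reached 5.99 (SE 1.08) for Dusp6 in kidney, 5.58 (SE 0.43) for Dusp7 in liver and 5.30 (SE 0.52) for Dusp5 in spleen, and the median gene had 2.70, 2.11, 3.14 and 3.07 in kidney, liver, lung and spleen. The value of Dusp6 rests on few NTS reads, 1 in kidney replicate 1 and 28 in replicate 2. Dusp4, whose NTS was high (21.9 and 22.3 in kidney), had ratios of 1.48 to 2.77. Dusp2 was not called in any organ (adjusted p between 0.0503 and 0.289), its NTS reads numbering 60 and 21 in kidney and 0 to 37 in the other libraries. The NTS itself differed between organs for 5 members (Dusp4, Dusp7, Dusp8, Dusp10 and Dusp16), where 29.0% of genes did.

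In spleen the 2 libraries of Dusp14 went opposite ways. Replicate 1 had 52 TS and 101 NTS reads, a TS share of 34.0% (95% Wilson interval 27.0 to 41.8), and replicate 2 had 207 and 156, a share of 57.02% (51.9 to 62.0), where 47.7% of its GG are on the TS. The log2 ratio over both was -0.12 (SE 0.42, adjusted p = 0.828), and it was 0.54 without replicate 1 and -0.83 without replicate 2, neither called (adjusted p = 0.351 and 0.171). In kidney its TS share was 80.1% (78.6 to 81.4). The difference of the ratio between organs was not called for Dusp14 (adjusted p = 0.0696). Intervals cover counting error only.

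The TS to NTS ratio of XR-seq differed between organs for 3 members, Dusp16, Dusp10 and Dusp7, where 20.1% of genes did. Dusp10 overlaps the opposite-strand gene 1700056E22Rik and Dusp16 the antisense transcript Gm36328, without overlap of exons. Within such a stretch the NTS of the member is the TS of the other gene. The part of these overlaps in the ratios was not tested. Dusp16 had ratios of 4.10 (SE 0.21) in lung, 3.38 in spleen, 2.91 in kidney and 1.65 (SE 0.19) in liver (adjusted p = 0.00295). Dusp10 had 3.78 (SE 0.23) in lung and 2.00 (SE 0.22) in kidney (adjusted p = 0.0138), and Dusp7 had 5.58 in liver and 2.77 (SE 0.38) in spleen (adjusted p = 0.0234). With each library left out in turn, Dusp16 stayed called. The call of Dusp10 was lost without liver replicate 2 or either lung library. That of Dusp7 was lost without either liver library, either lung library or spleen replicate 1. The number called was 5 without kidney replicate 2 and 1 without liver replicate 2, lung replicate 1 or lung replicate 2. For Dusp1 the ratio was nearly alike, 2.88, 2.89, 2.81 and 3.03 in kidney, liver, lung and spleen with SE between 0.63 and 0.65, and its TS share was 86.0% to 87.7% in the 4 organs.

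Damage-seq had few reads on the short members. Dusp1 had 4 to 55 reads in an organ with both strands and libraries summed, Dusp2 had 7 to 35 and Dusp6 had 11 to 67, whereas Dusp10 had 266 to 1018. In spleen the TS of Dusp1, Dusp2 and Dusp6 had 0 reads in both libraries, which allows up to 3 reads each, or 5.41 to 8.88 CPM per 1000 GG, a range that includes values of the other organs. At this depth differences in damage at these 3 genes were mostly not detectable.

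Per GG, the TS of members had less Damage-seq signal than the NTS in 70 and more in 9 of 80 library values. The share of all genes is not given for that count. The test called 2 to 6 members per organ. Kidney had 6 members called lower on the TS (Dusp4, Dusp5, Dusp7, Dusp8, Dusp10 and Dusp16), where 22.5% of genes were. Liver had 4 (Dusp2, Dusp8, Dusp10 and Dusp16, against 35.2%), lung 5 (Dusp6, Dusp7, Dusp8, Dusp10 and Dusp16, against 27.7%) and spleen 2 (Dusp6 and Dusp16, against 13.0%). The spleen call of Dusp6 set 0 TS reads against 11 NTS reads, and the liver call of Dusp2 set 2 against 13, libraries summed. Dusp16 was the 1 member called in all 4 organs. Its TS held 37.0% of 687 kidney reads, 23.1% of 351 liver reads, 32.3% of 659 lung reads and 37.4% of 219 spleen reads, where 48.6% of its GG are on the TS. The log2 ratios were -0.68 (SE 0.16), -1.65 (SE 0.21), -0.98 (SE 0.17) and -0.66 (SE 0.23).

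Dusp8 had ratios of -1.11 (SE 0.22) in kidney, -1.37 (SE 0.33) in liver and -1.22 (SE 0.27) in lung, and -0.49 (SE 0.35) in spleen, where it was not called, and its difference between organs was not called either (adjusted p = 0.607). Dusp14 was not called in any organ, its ratio lying between -0.35 and 0.20, and Dusp4 was at 0.08 (SE 0.43) in spleen. The calls depended on single libraries: the number of members was 0 without kidney replicate 1 and 3 without kidney replicate 2, 2 without liver replicate 1, 2 without lung replicate 2, and 0 without either spleen library. The ratio differed between organs for 1 member, Dusp16 (adjusted p = 0.0368), where 7.67% of genes did, and for none without kidney replicate 2, either liver library or spleen replicate 2. In that gene liver was the organ with the lowest TS share of damage and, in XR-seq, the organ with the lowest TS to NTS ratio.

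**Figure D4:**
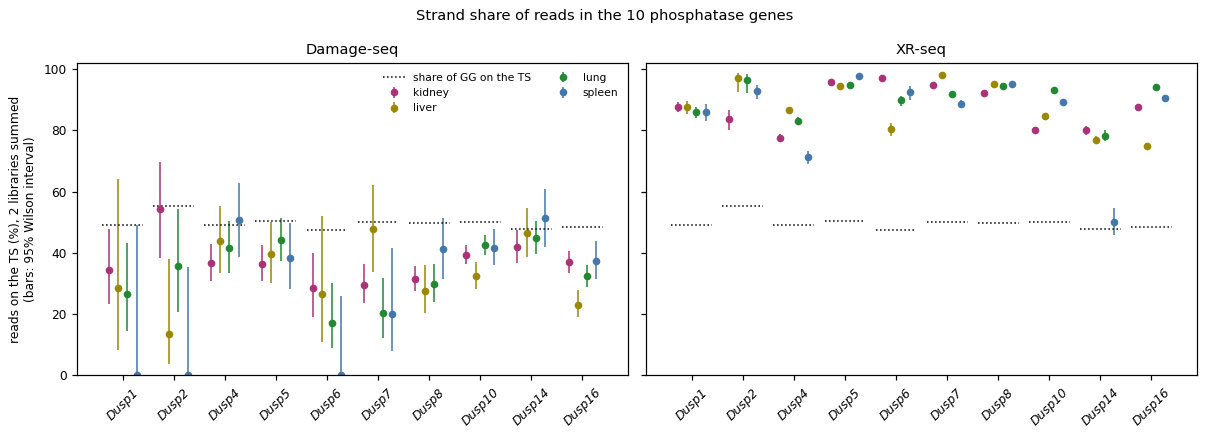
Percent of reads on the TS (y axis) in Damage-seq (left) and XR-seq (right) for each member and organ, 2 libraries summed, bars being 95% Wilson intervals and dotted lines the percent of GG on the TS. In XR-seq 39 of 40 intervals lie above the GG share, and in Damage-seq 27 of 40 lie below it and 0 above. Intervals cover counting error only, and the tests of TS against NTS, which use the spread between libraries, called fewer. The share of all genes is not given for these counts. Of all genes, those tests called 52.0% to 61.0% per organ higher on the TS in XR-seq and 13.0% to 35.2% lower in Damage-seq.

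The level of damage relative to the library differed between organs for 4 members on the TS (Dusp7, Dusp8, Dusp10 and Dusp16), where 30.5% of genes did, and for 3 on the NTS (Dusp4, Dusp7 and Dusp8), where 16.9% did. Dusp8 was the clearest: its NTS had 18.6 and 17.7 CPM per 1000 GG in kidney, and for the other organs 8.81 and 8.90 (liver), 9.02 and 8.48 (lung) and 7.96 and 10.1 (spleen), kidney being higher by 1.04 (SE 0.24, adjusted p = 0.00102), 1.05 (SE 0.22, adjusted p = 3.01e-04) and 0.98 (SE 0.26, adjusted p = 0.00714). The median gene had 10.5 and 9.50 on the NTS in kidney. Dusp7 followed with 15.8 and 16.95 in kidney and 4.29 to 7.57 in the other organs, kidney being higher by 1.63 (SE 0.39) than in liver, 1.28 (SE 0.33) than in lung and 1.37 (SE 0.42) than in spleen. Kidney was the higher organ in each member pair that was called: 3, 2 and 0 members on the TS against liver, lung and spleen (30.8%, 14.2% and 9.19% of genes) and 3, 3 and 2 on the NTS (15.4%, 14.8% and 10.3%). No member was called between liver, lung and spleen, where 7.26%, 5.19% and 0.697% of genes were on the TS and 0.0182%, 0.0121% and 0.00606% on the NTS, in the order liver with lung, liver with spleen and lung with spleen. With 1 library left out the number of members called on the TS was 2 (kidney replicate 1, either liver library or either spleen library), 1 (kidney replicate 2), 3 (lung replicate 2) or 5 (lung replicate 1).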

How the data were processed

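Kidney, liver, lung and spleen of mice were measured by Damage-seq and XR-seq (2 cisplatin libraries per organ each) and RNA-seq (2 control and 2 cisplatin libraries per organ). To make the files of both DNA assays the authors used cutadapt (to drop undamaged-strand reads in Damage-seq and trim adaptors in XR-seq), BWA on mm10 and Picard for deduplication, and deposited whole-number gene counts, split by TS and NTS. For RNA-seq they used STAR, a mapping quality filter and featureCounts, and deposited unnormalized gene counts. Their methods also name a ComBat correction for a known batch, which the labels do not give, so no batch term was fitted here to the deposited counts. The annotation release behind these counts is not given in the sources used here. The steps before counting fix what can be measured: duplicate removal limits pile-ups at 1 position, and a gene's count depends on the extent used. In the Damage-seq and XR-seq files 1 line with neither gene name nor count was dropped. Per library 1571167 to 6441367 (Damage-seq), 10658675 to 59779770 (XR-seq) and 15619474 to 162270280 (RNA-seq) reads lay on genes, so precision is lowest in Damage-seq.

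RNA-seq was tested per organ in R 4.3.3 with edgeR 4.0.16 (TMM, filterByExpr, quasi-likelihood test of a change beyond 0.4 on the log2 scale), and a gene was called where its p, adjusted by Benjamini and Hochberg's method, was under 0.05. Control levels and differences of response came from 1 fit of 8 groups, tested against 0. RNA-seq pairs with an index of dispersion of 3 or below were summed. The rule was not applied to Damage-seq, where the index was 1.43 to 3.11 and both libraries of a pair were kept as samples. Nothing in the labels says that libraries of a group are separate animals, the paper calls them biological replicates, and p-values measure the spread between these samples. Damage-seq and XR-seq used genes under 100000 bp that held 10 or more GG on one strand or the other and 20 or more reads, summed over libraries, in each of the 3 assays. Library size was all reads on genes without TMM. TS and NTS were compared in 1 fit with library as block and the GG count of each strand as offset. GG were counted on GRCm38 over GENCODE M21 genes, and over the RefSeq extent for Dusp1, a choice made after the counts had been seen. The exon length behind the RPKM of Dusp1 was taken over that extent too. DESeq2 1.42.0, other scaling and filters, a replicate block and leaving out each library were alternatives. Python 3.11.15 was used for summaries. Fits were tested on simulated data.

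The members, gene lists and motifs were chosen with earlier results of these data known. Named genes were all members, from each pathway list up to 3 called genes of largest change per organ and those called in 3 or more organs, and for likeness the gene of highest Pearson r over log2 CPM. Promoters were planned for up to 4 members called up in the most organs, ties by the kidney change.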

Additional observations from a re-analysis of the deposited data

Results flagged for a closer look

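The cisplatin response of Dusp5 RNA was flagged because a test of the difference itself set kidney apart from each other organ, by 2.67 from liver, 4.45 from lung and 3.76 from spleen on the log2 scale. The response of Dusp4 in kidney differed from that in spleen by 2.78. With DESeq2's size factors fewer response differences were called, so not every one of these held under that scaling. The TS to NTS ratio of XR-seq differed between organs for Dusp16 (adjusted p = 0.00295), Dusp10 (adjusted p = 0.0138) and Dusp7 (adjusted p = 0.0234), and that of Damage-seq for Dusp16 (adjusted p = 0.0368). Of these calls only that of Dusp16 in XR-seq held with each library left out in turn. Dusp16 and Dusp10 overlap transcripts of the opposite strand, whose part in these ratios was not tested. No group held 4 or more samples, so single libraries were not tested for lying apart.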

How the results depend on the processing

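The counts of members called were recomputed under every alternative, 108 staying within 1.5 times and 39 not. In RNA-seq the number called in kidney was 5 to 7 over libraries left out. In liver it went from 0 to 1 (DESeq2, no filter, or the fit of all 8 groups) and to 1 to 2 with 1 library left out. In lung it was 4 with each library counted as a replicate, 0 in the fit of all 8 groups and 0 to 1 with 1 library left out, and in spleen it was 0 in each case with 1 library left out. Without a cisplatin library of lung or spleen 1 sample was set against 1, assumed to vary like the other groups, and in lung no gene at all was then called. Replicate numbers were not taken as pairing, since the labels tie them to no shared animal or batch and there are 2 pairs per organ, although same-numbered control and cisplatin libraries deviated together in kidney (r = 0.42 over 15471 genes), liver (0.35) and spleen (0.34), less so in lung (0.059). Under the replicate block the number was 9 in kidney, 2 in liver, 4 in lung, 2 in spleen and 15 for member pairs between organs. That block was fitted to single libraries, so the control pairs of lung and spleen were not summed. Without the block, each library counted as a replicate gave 4 in lung and 17 for member pairs. The main fit, with those controls summed, gave 4 for member pairs, and DESeq2 size factors gave 2. No count in XR-seq or Damage-seq moved by over 1.5 times under the block. With TMM it was 3 for the XR-seq NTS and 2 for the Damage-seq TS between organs. With 1 library left out, XR-seq counts were 8 to 10 (TS) and 4 to 7 (NTS) between organs, 9 in kidney, 6 to 7 in liver, 8 in lung and 7 to 9 in spleen for TS against NTS, and 1 to 5 for its ratio. Damage-seq counts were then 1 to 5 (TS) and 2 to 4 (NTS) between organs, 0 to 3 in kidney, 2 to 3 in liver, 2 to 4 in lung and 0 in spleen for TS against NTS, and 0 to 1 for its ratio. The GENCODE extent of Dusp1, added after seeing the data, was used only for TS against NTS, where it moved no count by over 1.5 times. That comparison could hardly move, since GG rise on both strands alike, from 215 to 4040 (TS) and from 224 to 3850 (NTS). The level of Dusp1 per GG and its percentiles do depend on the extent and were not recomputed. No member's log2 fold change that was called changed sign. The cause of these changes was not tested, other than that fewer samples were fitted where a library was left out. Depth limits Damage-seq at the short genes.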
